A study of Mus musculus with 12 samples.

Results

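The genes described here are 36 markers of macrophages and other myeloid cells, the leukocytes that take up dying cells and debris in injured muscle. They were measured in muscle of PTRF knockout mice and of wild-type mice. They were chosen by exact match of gene symbol in the deposited tables, and each of the 36 matched 1 identifier among the 21936 genes listed. The match itself used symbols and not the measured values, but the members were chosen with earlier results of these data known. A gene with no entry in a library was counted as 0 TPM there. All 36 were higher in each knockout library than in any wild-type library, as were 38.1% of the 18254 genes above 0 in any library.

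Polyadenylated RNA was sequenced from C57BL/6N mice aged 3 months, either wild type (disease state normal) or PTRF knockout (disease state muscular dystrophy). PTRF, now called cavin 1 and encoded by Cavin1, coats caveolae, the small pits of the plasma membrane. The labels give 3 samples for each genotype in soleus, a slow postural muscle of the calf, and 3 in quadriceps, a thigh muscle, but do not describe the knockout allele, the sexes or whether a sample was 1 animal. Soleus and quadriceps samples that share genotype and number held the same values, with a largest difference of 0 TPM, so the 12 samples were counted as 6 libraries, 3 wild type and 3 knockout, whose muscle of origin is unknown.

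Macrophages in adult muscle come from cells that settle in the tissue and renew there, and from blood monocytes that enter after damage. Resident cells around vessels and in the connective tissue sheaths carry scavenger receptors such as CD163, the mannose receptor Mrc1 and the hyaluronan receptor Lyve1. Monocytes enter by means of the chemokine receptor Ccr2. Macrophages that have taken up lipid and debris in damaged tissue turn on the lipid receptor Trem2 and the lysosomal glycoprotein Gpnmb. Most activating receptors of these cells have no signalling tail of their own and work through the adaptors Tyrobp (DAP12) and Fcer1g, whose tyrosine motif (ITAM) recruits the kinase Syk.

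The values were read as TPM, each gene's share of all transcripts after division by transcript length. Each library summed to between 843194 and 872482 TPM, and sequencing depth is unknown. Cavin1, the targeted gene, ran from 39.96 to 45.2 TPM in wild type and from 0.0254 to 0.284 TPM in knockout. Transcripts of the mitochondrial genome took 43.0 to 52.3% of the values in wild type and 39.0 to 45.7% in knockout, so the share left to other genes was not the same in every library. Across all 11056 tested genes the median log2 fold change was 0.33, and after rescaling of the libraries by trimmed means it was -0.02. Knockout library 1 held liver transcripts, with albumin (Alb) at 15.1 TPM against 0.466 TPM or less in the other libraries. Wild-type library 2 held Myh4, a myosin of fast fibres, at 193.5 TPM, against 6.43 and 4.21 TPM in the other wild-type libraries. All knockout libraries held more Myh4, at 238, 580 and 346 TPM. Since no label names separate animals, the p-values speak of the spread among these libraries alone, and that spread may be technical.

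The comparison of genotypes asked which myeloid genes differed in the knockout. Of the 36 genes, 32 reached the filter of 1 TPM in at least 3 libraries, and all 32 were higher in the knockout and none lower (limma on log2(TPM + 1), adjusted p below 0.05). Of all tested genes 36.3% were called higher and 2.92% lower in the same fit. The median log2 fold change of the 32 was 1.54, against 0.33 for all tested genes, and their median fold of mean TPM was 4.94, against 1.31. In bulk muscle, fewer or more cells of a type and less or more RNA per cell cannot be told apart. After trimmed-mean rescaling, 30 of the genes reached the filter and 30 were called higher, with a median of 1.33, where 13.8% of all genes were called higher and 14.4% lower. After quantile normalization 28 of 30 were called higher, where 12.4% of all genes were higher and 13.4% lower. A log2 fold change of at least 1 was reached by 25 of the 32 and, among called genes, by 7.79% of all tested genes in that direction.

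The filter bore on these counts. Of the 32 tested genes, 13 had no wild-type library at 1 TPM and were tested only because they were higher in the knockout: Adgre1, Msr1, Aif1, Spi1, Ccr2, Cd14, Ms4a7, Ms4a6d, Itgam, Itgb2, Cybb, Ptprc and Lcp1. The other 19 had at least 1 wild-type library at 1 TPM. Only 11 of them had 3 such libraries, and the rest also needed knockout libraries to reach the filter. Folr2, Ms4a6c, Cd53, Laptm5 and Coro1a had 1 such library, and Gpnmb, Fcgr2b and Cd52 had 2. Trem2, Fcgr1, Clec4n and Cd84 were not tested. With no filter, all 36 were called higher among 18254 genes, of which 19.8% were called higher and 1.58% lower. Without regard to any filter, the groups did not overlap for 36 of the 36, and the same held, in that direction, for 38.1% of the 18254 genes above 0 in any library and 48.7% of the tested genes. After trimmed-mean rescaling the groups still did not overlap for 36 of the 36, against 17.6% of those genes.

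**Figure D1:**
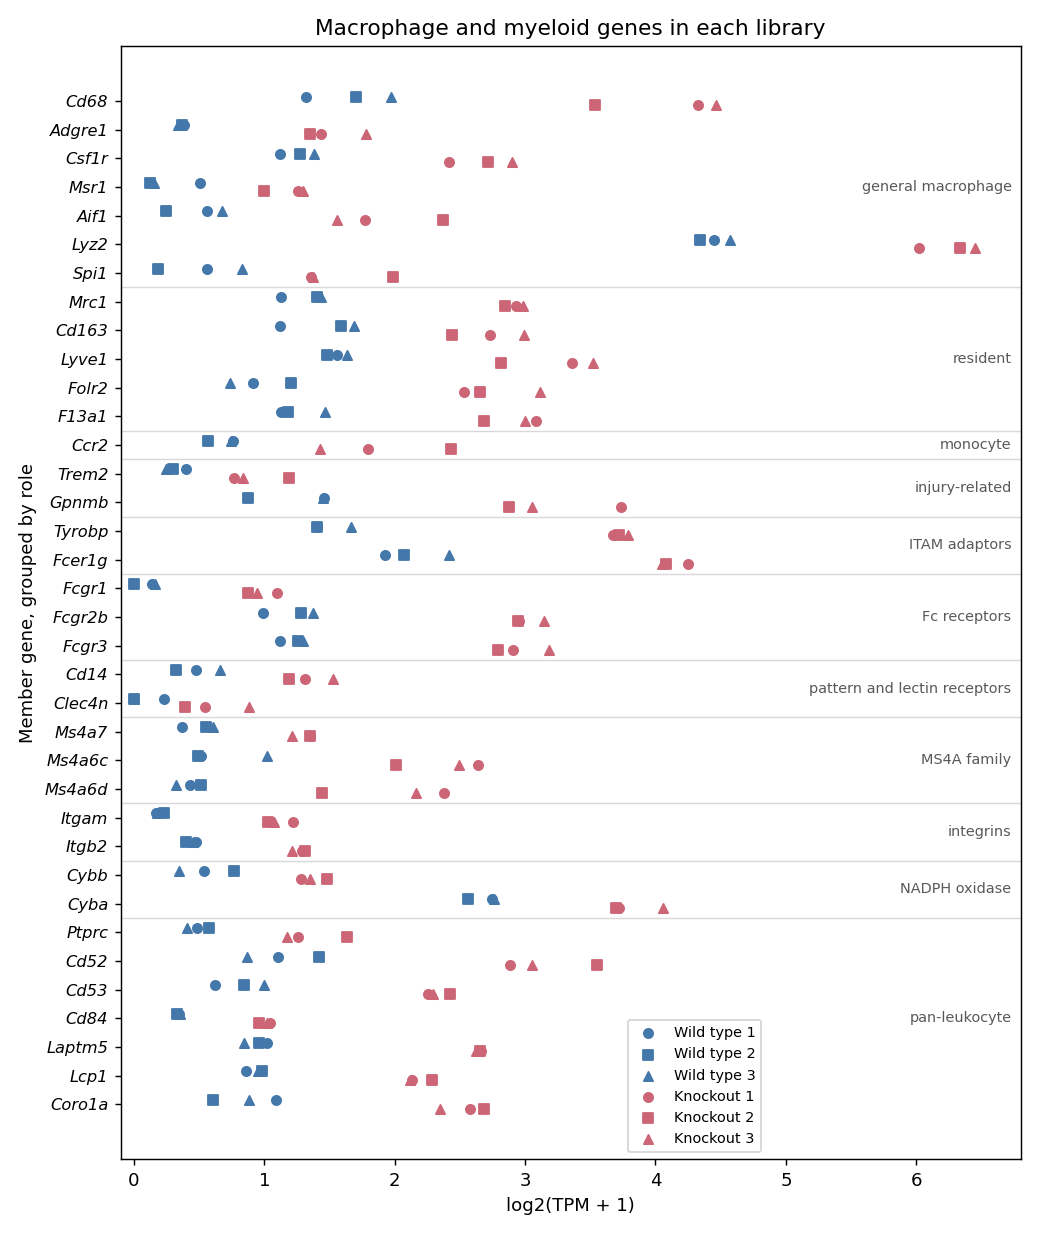
Level of each of the 36 genes on the log2(TPM + 1) scale (horizontal axis) in the 3 wild-type libraries (blue) and 3 knockout libraries (red), 1 point per library, grouped by role. In every row the 3 red points lie to the right of the 3 blue points.

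The pan-macrophage genes were among those with both the largest and the smaller differences. Cd68, a lysosomal glycoprotein of phagocytes (ENSMUSG00000018774, protein coding, chromosome 11 from 69664213 to 69666153 on the minus strand in GRCm38), had 1.498, 2.25 and 2.91 TPM in the wild-type libraries, in the order of their numbers. The knockout libraries, in the same order, had 19.1, 10.6 and 21.1 TPM. The lowest knockout value was 3.64 times the highest wild-type value, and knockout library 2 lay well below the other two. Its log2 fold change of 2.45 (95% interval 1.92 to 2.98, limma adjusted p = 2.61e-05) was the largest of the 32.

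Csf1r, the receptor for the macrophage growth factor CSF1, was at 1.18, 1.42 and 1.60 TPM in wild type and at 4.34, 5.56 and 6.45 TPM in knockout (log2 fold change 1.42, SE 0.16, limma adjusted p = 5.89e-05). Adgre1, which encodes the F4/80 antigen (chromosome 17, 57358691 to 57483527, plus strand), was at 0.302, 0.288 and 0.265 TPM and at 1.70, 1.55 and 2.44 TPM (1.16, SE 0.14, limma adjusted p = 0.000116). Wild-type values of Adgre1 were close together, while knockout library 3 stood above the other two. Spi1, the transcription factor PU.1 that sets the myeloid programme (chromosome 2, 91082390 to 91115756, plus strand), was at 0.471, 0.136 and 0.775 TPM and at 1.56, 2.97 and 1.59 TPM (1.05, SE 0.20, limma adjusted p = 0.00227). Spi1 lost its call after quantile normalization (adjusted p = 0.0539, over a range of 0.00124 to 0.0539 across the alternatives).

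Lyz2, lysozyme of phagocytes, held the highest level of the 36 in both genotypes. Wild-type libraries had 20.8, 19.3 and 22.8 TPM and knockout libraries 63.9, 79.96 and 86.3 TPM, a fold of means of 3.66. The adjacent near-identical gene Lyz1 was at 0.680, 1.22 and 1.40 TPM and at 2.10, 3.56 and 6.25 TPM, and how reads were divided between the copies is not given in the sources used here. Aif1, which encodes the actin-binding protein IBA1, rose from a mean of 0.420 ± 0.212 to 2.84 ± 1.18 TPM (SD, n = 3 each). Msr1, a scavenger receptor for modified lipoprotein, rose from 0.207 ± 0.184 to 1.28 ± 0.249 TPM. All 7 genes of this role passed the test, with folds of means between 3.66 and 7.63, where 36.3% of all tested genes were called higher. Of the 7, Adgre1, Msr1, Aif1 and Spi1 reached the filter only through the knockout libraries.

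The second question was whether markers of resident, incoming and injury-related macrophages moved alike. Mrc1, Cd163 and Lyve1 were all higher in the knockout, as were Ccr2 and Gpnmb, while Trem2 was too low to be tested under the filter. Folds of mean TPM were 4.36 for Mrc1, 3.15 for Cd163, 4.42 for Lyve1, 4.61 for Ccr2, 6.01 for Gpnmb and 3.77 for Trem2. Each of these genes was separate between genotypes, and the folds ran from Cd163 up to Gpnmb.

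Mrc1 (chromosome 2, 14229392 to 14332057, plus strand) was at 1.18, 1.64 and 1.70 TPM in wild type and at 6.62, 6.18 and 6.93 TPM in knockout (log2 fold change 1.60, SE 0.14, limma adjusted p = 1.25e-05). Cd163, the receptor for haemoglobin bound to haptoglobin (chromosome 6, 124304656 to 124330527, plus strand), was at 1.18, 2.01 and 2.23 TPM and at 5.65, 4.42 and 6.95 TPM (1.25, SE 0.19, limma adjusted p = 0.00044). Lyve1 (chromosome 7, 110850607 to 110863239, minus strand) was at 1.95, 1.79 and 2.10 TPM and at 9.27, 6.03 and 10.5 TPM (1.68, SE 0.18, limma adjusted p = 5.06e-05). For each of these genes the groups were separate, and the gap was narrowest for Cd163, whose lowest knockout value was 1.99 times its highest wild-type value.

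Lyve1 and Mrc1 are also made by lymphatic endothelium. Of 6 lymphatic endothelial markers 5 were called higher and none lower, both on the deposited scale and after trimmed-mean rescaling. The lymphatic chemokine Ccl21a rose from 6.02 ± 1.97 to 46.7 ± 4.52 TPM (SD, n = 3 each), and Mmrn1 from 1.08 ± 0.0658 to 5.19 ± 0.765 TPM. Prox1, a transcription factor of these cells, did not pass, with 2.93 to 4.37 TPM in wild type and 3.31 to 4.62 TPM in knockout. Which cells of the muscle its transcripts came from was not tested. The summed level of the list was 10.7 to 17.5 TPM in wild type and 64.4 to 70.7 TPM in knockout, and its part in the Lyve1 and Mrc1 values was not tested.

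The remaining members of the resident role behaved alike. Folr2, a folate receptor of resident macrophages, rose from 0.951 ± 0.325 to 5.91 ± 1.53 TPM, a fold of means of 6.22. F13a1, the A chain of coagulation factor XIII, rose from 1.41 ± 0.313 to 6.63 ± 1.07 TPM, a fold of 4.71. Among 12 further genes of resident-type macrophages, 9 were tested and 8 of them were called higher (6 after trimmed-mean rescaling). C1qa, a chain of complement C1q made by macrophages, rose from 3.68 ± 0.136 to 28.03 ± 6.64 TPM and Cbr2, a carbonyl reductase, from 1.86 ± 0.184 to 10.6 ± 0.915 TPM.

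Ccr2 (chromosome 9, 124101950 to 124113557, plus strand) was at 0.695, 0.485 and 0.679 TPM in wild type and at 2.47, 4.40 and 1.69 TPM in knockout (log2 fold change 1.19, SE 0.21, limma adjusted p = 0.00143). Its knockout libraries differed by a factor of 2.61, with library 2 highest and library 3 lowest. Of 12 other genes tied to monocytes 7 were tested and 6 were called higher, on both scales, with none lower. They included S100a4, a calcium-binding protein also made by fibroblasts, at 13.02 ± 1.49 and 96.1 ± 9.86 TPM, and Plac8, at 0.116 ± 0.0490 and 3.11 ± 1.24 TPM. The classical monocyte antigen Ly6c2 rose from 1.196 ± 0.0543 to 2.87 ± 0.466 TPM.

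Gpnmb (chromosome 6, 49036546 to 49070929, plus strand) was at 1.74, 0.837 and 1.74 TPM in wild type and at 12.3, 6.33 and 7.28 TPM in knockout (log2 fold change 1.96, SE 0.23, limma adjusted p = 8.64e-05). Knockout library 1, the library with liver transcripts, held the highest value. Trem2 (chromosome 17, 48346401 to 48354147, plus strand) was at 0.320, 0.228 and 0.186 TPM in wild type and at 0.702, 1.27 and 0.787 TPM in knockout. Only knockout library 2 reached 1 TPM. With no filter its log2 fold change was 0.62 (limma adjusted p = 0.0155). Of 14 genes linked to lipid handling and phagocytosis in injury macrophages, 10 were called higher and none lower, and after trimmed-mean rescaling 5 were higher and 3 lower. Lgals3, a galectin of phagocytes, rose from 3.01 ± 0.809 to 35.3 ± 9.79 TPM and the tetraspanin Cd9 from 18.03 ± 0.470 to 80.4 ± 2.66 TPM. Fabp5, Abca1, Mertk, Ctsd and Ctsb lost their calls after rescaling. The 3 genes lower there were Lpl, Cd36 and Plin2, with log2 fold changes of -0.55, -0.75 and -0.58. Wild-type means of Lpl and Cd36 were 954 and 603 TPM, above those of all 36 myeloid genes. Which cells these transcripts came from was not tested. Spp1 (osteopontin) did not pass, with 1.55, 0.708 and 1.24 TPM in wild type and 3.65, 0.798 and 0.926 TPM in knockout.

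Because a ratio of 2 genes in 1 library does not depend on the scale of that library, each of the 6 markers was divided by Csf1r. No ratio of TPM passed the test, and wild-type and knockout values overlapped for all 6. The mean ratio of Mrc1 to Csf1r was 1.07 ± 0.0804 in wild type and 1.24 ± 0.2501 in knockout (SD, n = 3 each; exact permutation test, two-sided, p = 0.4). For Cd163 it was 1.27 ± 0.235 and 1.06 ± 0.254 (exact permutation p = 0.3), and for Lyve1 1.41 ± 0.212 and 1.61 ± 0.525 (exact permutation p = 0.7). The Ccr2 ratio was 0.452 ± 0.126 and 0.541 ± 0.266 (exact permutation p = 0.7). For Trem2 it was 0.183 ± 0.0796 and 0.171 ± 0.0543 (exact permutation p = 1), and for Gpnmb 1.05 ± 0.445 and 1.70 ± 0.986 (exact permutation p = 0.4). Adjusted over the 6 ratios these gave 0.8 to 1, and 3 libraries against 3 cannot go below 0.1. With 1 TPM added to both genes, the Trem2 ratio was separate, at 0.605, 0.508 and 0.456 in wild type and 0.319, 0.347 and 0.2397 in knockout (exact permutation p = 0.1, adjusted 0.6). The added 1 TPM was larger than every wild-type Trem2 value (0.186 to 0.320 TPM). This separation therefore depends on the constant, and no conclusion is drawn from it. Knockout library 1 had the highest Gpnmb ratio, 2.84, and without it the difference of the means was 0.0814, against 0.651 with it.

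The reference gene mattered to this comparison. Divided by Cd68, the ratios of the 3 resident markers were lower in every knockout library than in any wild-type library. Cd163 to Cd68 was 0.785, 0.892 and 0.764 in wild type and 0.296, 0.417 and 0.329 in knockout. Mrc1 to Cd68 had means of 0.701 and 0.419, but its nearest wild-type and knockout values were 0.583579 and 0.583556. The Lyve1 to Cd68 ratio had means of 0.937 and 0.517. Divided by Tyrobp, the same 3 were again separate, with Cd163 to Tyrobp at 0.716, 1.22 and 1.02 against 0.480, 0.362 and 0.541. Each of these 6 comparisons reached the smallest p the design allows (exact permutation test, two-sided, p = 0.1; adjusted over the 6 markers of a reference gene, 0.2). The ratios of Ccr2, Trem2 and Gpnmb to Cd68 or Tyrobp overlapped between the genotypes. The folds of means behind these ratios were 7.63 for Cd68, 6.74 for Tyrobp and 3.90 for Csf1r, and none of the contrasts passed a threshold of 0.05.

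**Figure D2:**
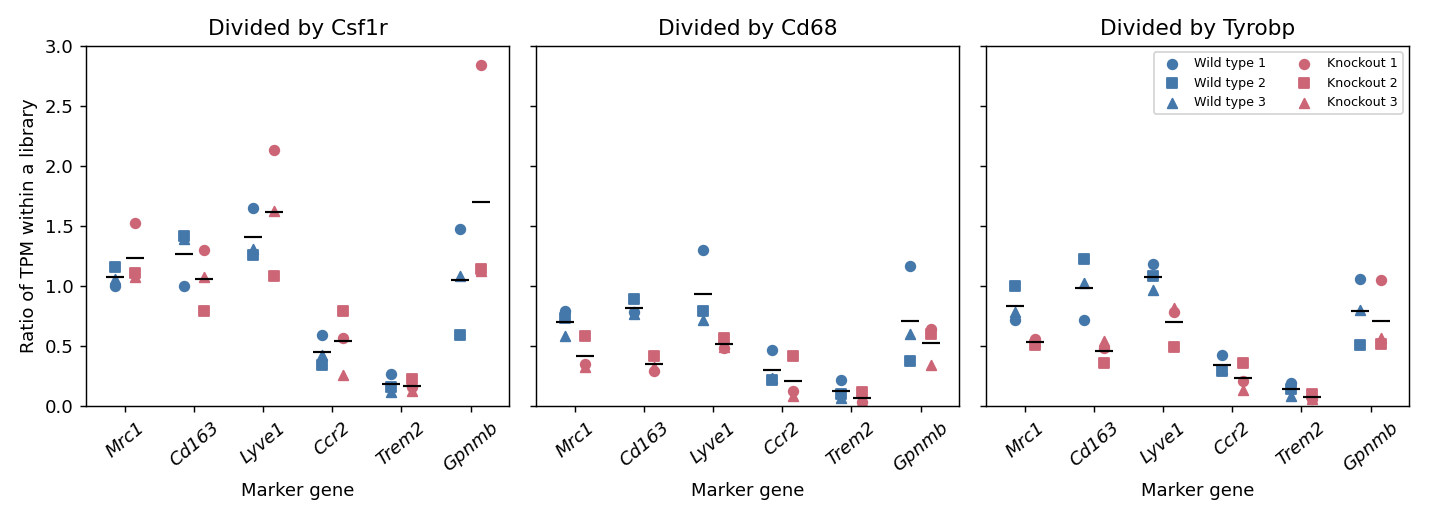
Ratio of TPM of 6 marker genes to Csf1r (left), Cd68 (middle) and Tyrobp (right) in each library, with wild type in blue, knockout in red and group means as black bars. Wild-type and knockout points overlap for all 6 markers over Csf1r and are separate for Mrc1, Cd163 and Lyve1 over Cd68 and over Tyrobp.

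The adaptors through which myeloid receptors signal were high and even between knockout libraries. Tyrobp (chromosome 7, 30413760 to 30417585, plus strand) was at 1.64, 1.64 and 2.18 TPM in wild type and at 11.8, 12.2 and 12.9 TPM in knockout (log2 fold change 2.24, SE 0.14, limma adjusted p = 2.08e-06). The lowest knockout value was 5.41 times the highest wild-type value. Fcer1g (chromosome 1, 171229572 to 171234365, minus strand) was at 2.80, 3.21 and 4.33 TPM and at 18.05, 15.9 and 15.6 TPM (1.99, SE 0.16, limma adjusted p = 6.92e-06). Of 16 genes for ITAM and Fc receptor signalling, 15 were listed, 8 were tested and all 8 were called higher (4 of 6 after trimmed-mean rescaling). The actin regulator Hcls1 rose from 0.967 ± 0.114 to 2.88 ± 0.339 TPM. Syk was at 0.530 to 0.682 TPM in wild type and at 1.07 to 1.61 TPM in knockout.

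The Fc receptors bind the constant part of antibodies. Fcgr2b, the inhibitory member, rose from 1.33 ± 0.311 to 7.10 ± 0.636 TPM, and Fcgr3, an activating member that pairs with Fcer1g, from 1.34 ± 0.146 to 6.83 ± 1.10 TPM. Both lie on chromosome 1, at 170958617 to 170976547 and 171051174 to 171064935, with Fcer1g close by. Fcgr1, the high-affinity receptor (chromosome 3, 96282909 to 96293969, minus strand), had no entry in wild-type library 2, with 0.0990 TPM in library 1 and 0.121 TPM in library 3. Knockout values were 1.14, 0.833 and 0.928 TPM. With no filter its log2 fold change was 0.87 (limma adjusted p = 0.00162). Fcgr4, a related activating receptor outside the 36, was at 0.0518 TPM in wild-type library 1, without an entry in library 2, listed at 0 in library 3, and at 1.60, 1.03 and 1.34 TPM in knockout.

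Among the pattern and lectin receptors, Cd14, which hands lipopolysaccharide to Toll-like receptor 4, rose from 0.408 ± 0.166 to 1.55 ± 0.309 TPM. Clec4n (Dectin-2), a receptor for fungal mannans, had 0.175 TPM in wild-type library 1, no entry in library 2 and a listed value of 0 in library 3. Knockout values were 0.459, 0.309 and 0.841 TPM. It was the lowest of the 36 in both genotypes. With no filter it passed (log2 fold change 0.53, limma adjusted p = 0.0363), close to the threshold.

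The MS4A genes encode small membrane proteins with 4 spanning segments and lie together on chromosome 19, from 11321039 to 11604849. Ms4a6d rose from 0.341 ± 0.0863 to 3.13 ± 1.28 TPM, a fold of means of 9.18, and Ms4a6c from 0.620 ± 0.356 to 4.29 ± 1.13 TPM, a fold of 6.92. Ms4a7 was at 0.289, 0.469 and 0.526 TPM in wild type and at 1.56, 1.55 and 1.31 TPM in knockout, and its change on the log2 scale, 0.79 (SE 0.13, limma adjusted p = 0.00074), was the smallest of the 32 tested genes. Ms4a6c and Ms4a6d have close relatives, such as Ms4a6b at 0.696 ± 0.363 and 2.83 ± 0.714 TPM, so the division of reads between them is uncertain.

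The integrin chains Itgam (CD11b) and Itgb2 (CD18) together form the complement receptor 3. Itgam was at 0.122, 0.174 and 0.128 TPM in wild type and at 1.33, 1.04 and 1.11 TPM in knockout, a fold of means of 8.21. Itgb2, which also pairs with other alpha chains, was at 0.393, 0.322 and 0.369 TPM and at 1.44, 1.49 and 1.32 TPM, a fold of 3.93. Both chains were separate between the genotypes in every library.

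Cybb and Cyba encode the membrane subunits of the phagocyte NADPH oxidase. Cyba, which many cell types express, had the smallest fold of means of the 36, 2.43, from 5.47 ± 0.482 to 13.3 ± 2.04 TPM. Cybb was at 0.454, 0.703 and 0.269 TPM in wild type and at 1.43, 1.79 and 1.55 TPM in knockout (log2 fold change 0.82, SE 0.14, limma adjusted p = 0.00118). It lost its call after quantile normalization (adjusted p = 0.0667, over a range of 0.000565 to 0.0667 across the alternatives). Of 4 genes for the cytosolic subunits and their GTPase, 3 were called higher (2 of 3 after trimmed-mean rescaling). Rac2, the GTPase of blood cells, rose from 0.192 ± 0.0857 to 3.71 ± 1.43 TPM and Ncf1 from 0.387 ± 0.106 to 1.69 ± 0.0025 TPM.

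The genes shared by most leukocytes rose as well. Ptprc, the CD45 phosphatase, was at 0.397, 0.494 and 0.323 TPM in wild type and at 1.39, 2.10 and 1.25 TPM in knockout. Cd52, a short glycoprotein of lymphocytes and monocytes, rose from 1.21 ± 0.4297 to 8.14 ± 2.30 TPM, a fold of 6.70. Laptm5, a lysosomal protein of blood cells, was the most even of the 36 genes among knockout libraries, at 5.34, 5.29 and 5.17 TPM against 1.03, 0.947 and 0.799 TPM in wild type. The actin-binding proteins Coro1a and Lcp1 rose from 0.832 ± 0.303 to 4.83 ± 0.671 TPM and from 0.904 ± 0.0828 to 3.53 ± 0.293 TPM, and the tetraspanin Cd53 from 0.779 ± 0.232 to 4.02 ± 0.316 TPM. Cd84, an adhesion receptor of the SLAM family, was at 0.273, 0.254 and 0.277 TPM in wild type and at 1.06, 0.944 and 1.03 TPM in knockout, and was not tested under the main filter. With no filter it passed (log2 fold change 0.67, limma adjusted p = 0.00139).

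**Figure D3:**
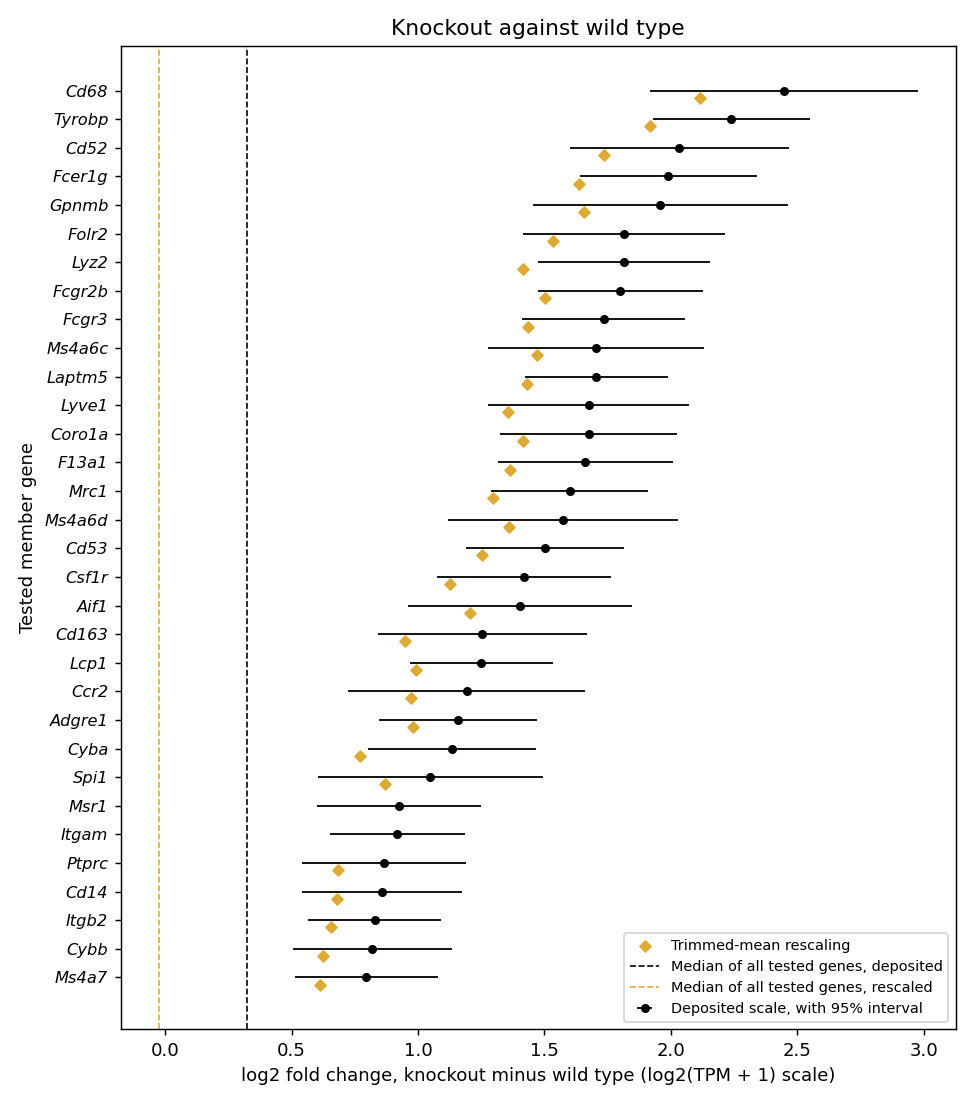
Log2 fold change of the 32 tested genes on the log2(TPM + 1) scale (black, with 95% intervals from limma) and after trimmed-mean rescaling (yellow diamonds, 30 genes); dashed lines mark the median of all tested genes on each scale. The genes run from Ms4a7 at 0.79 to Cd68 at 2.45, and each interval lies to the right of the median of all genes, 0.33.

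The knockout libraries did not rank the genes in one order. Knockout library 3 held the highest value for 15 of the 36, library 2 for 11 and library 1 for 10, while library 2 held the lowest value for 18. In library 2, Ccr2, Aif1, Spi1, Trem2, Ptprc and Cd52 were highest, and Cd68, Lyve1, Cd163, Mrc1, Gpnmb, Ms4a6c and Ms4a6d were lowest. The median ratio of highest to lowest knockout library was 1.42, with Laptm5 at 1.03 and Clec4n at 2.72. The summed level of the 36 was nearly equal in knockout libraries 1 and 2, at 243.6 and 243.7 TPM, with 273 TPM in library 3, and was 54.6, 54.2 and 63.7 TPM in wild type. This difference among libraries was described after the values were seen and was not tested.

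**Figure D4:**
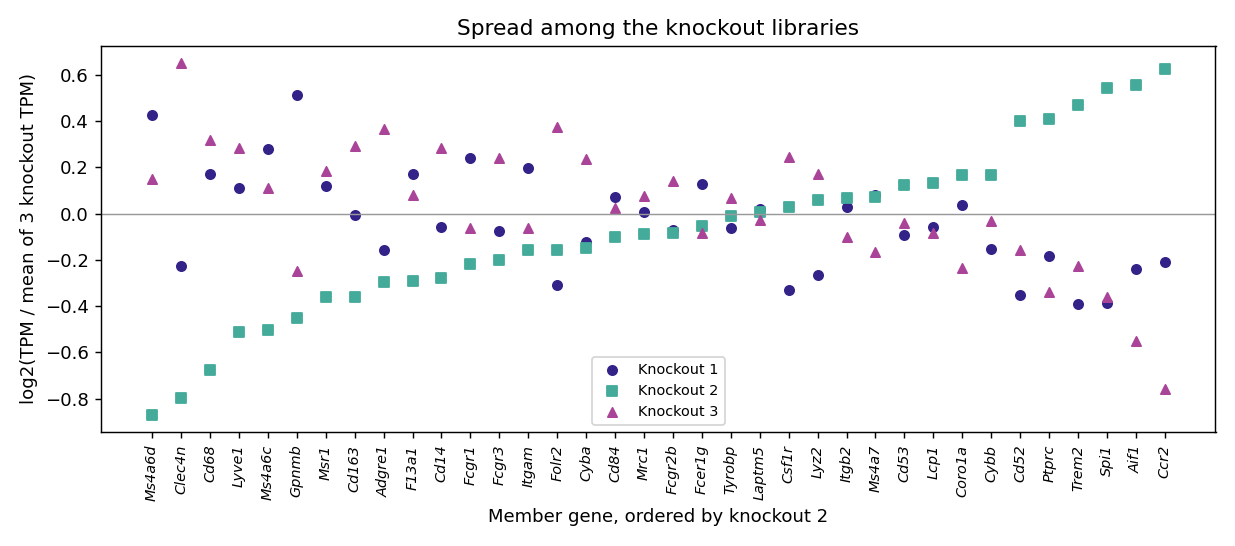
Level of each gene in each knockout library relative to the mean of the 3 (vertical axis, log2), with genes ordered by knockout library 2. Library 2 is the lowest for 18 genes, mostly at the left, and the highest for 11, including Ccr2, Aif1 and Spi1 at the right.

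Genes that mark other leukocytes were examined beside these. Neutrophil markers summed to 0.723 to 2.80 TPM in wild type and to 40.8, 4.08 and 8.42 TPM in knockout libraries 1, 2 and 3. Of the 10, only S100a8 and S100a9 were tested, and both passed, S100a9 at 0.544, 1.34 and 0.535 TPM against 22.7, 2.48 and 4.02 TPM. The neutrophil genes Elane, Mpo and Ly6g stayed at or below 0.143 TPM in every library. Retnlg, of the same list and also not tested, was at 4.32, 0 and 1.16 TPM in knockout libraries 1, 2 and 3. In wild type it was at 0.236 TPM or less. None of the T and NK cell or B cell markers was tested. The highest T and NK cell marker, Cd247, was at 0.484 ± 0.155 and 0.905 ± 0.214 TPM, and Cd79b, the highest B cell marker, at 0.172 ± 0.0670 and 0.422 ± 0.224 TPM. Of 6 mast cell markers 4 were tested and called higher on both scales, such as Tpsb2, from 1.04 ± 0.299 to 3.66 ± 0.559 TPM, and Cma1, from 0.710 ± 0.304 to 3.05 ± 0.721 TPM. Of 7 dendritic cell markers 2 were tested, and Cd209a was called higher on both scales. Cd209a rose from 0.239 ± 0.108 to 1.29 ± 0.0893 TPM and reached the filter only through the knockout libraries. The other tested marker, Zbtb46, was above 1 TPM in every library and did not pass (log2 fold change 0.29, limma adjusted p = 0.106). After trimmed-mean rescaling the log2 fold change of Zbtb46 was 0.01.

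Marker lists of stromal and vascular cells also moved. All 7 markers of fibro-adipogenic progenitors were called higher (6 after trimmed-mean rescaling), among them Cd34, from 16.3 ± 2.16 to 53.2 ± 3.13 TPM, and Ly6a, from 76.4 ± 12.2 to 291 ± 62.7 TPM. Of 6 endothelial markers 5 were higher and Kdr was lower (4 and 1 after rescaling), with Pecam1 at 28.1 ± 0.829 and 80.1 ± 10.3 TPM and Emcn at 10.3 ± 0.344 and 24.7 ± 2.11 TPM. Of the Kupffer cell markers, Clec4f was at 0.121 TPM in knockout library 1 and at 0 or without an entry in the other 5 libraries. Vsig4, a complement receptor that resident macrophages of other tissues also carry, was at 0.149, 0.0752 and 0.271 TPM in wild type and at 0.903, 0.553 and 0.988 TPM in knockout, too low to be tested under the filter. With no filter Vsig4 passed (log2 fold change 0.63, limma adjusted p = 0.0116). Without that library, and with the same genes tested, 32 of the 32 myeloid genes were still called higher. None of 5 red blood cell markers passed, with Hbb-bs at 280.0 to 602 TPM in wild type and 149 to 781 TPM in knockout. Of 8 muscle fibre markers 1 was called higher, Myh4, and none lower, while after rescaling 1 was higher and 1 lower. The part of these cell types in the myeloid values was not tested.

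**Figure D5:**
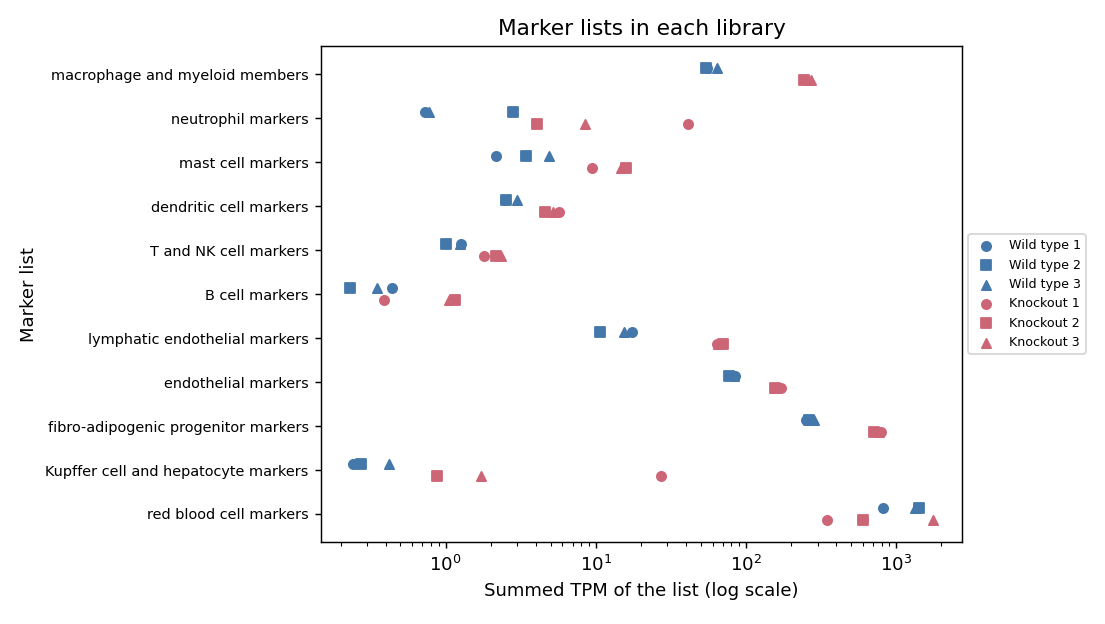
Summed TPM (horizontal axis, log scale) of the 36 myeloid genes and of 10 marker lists for other cell types in each library, with wild type in blue and knockout in red. The myeloid genes sum to 54.2 to 63.7 TPM in wild type and 243.6 to 273 TPM in knockout, and the hepatocyte and neutrophil lists stand out in knockout library 1.

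Since the genes were higher together, the letters of their promoters were searched for the core of the PU.1 site, GAGGAAG, on both strands, and for the shorter ETS core GGAA that it contains. RefSeq windows of 250 bases before to 50 bases after the start site (GRCm38.p6) were matched by symbol for 25 of the 36 genes, some with more than 1 start, giving 32 windows. GAGGAAG was found in 10 of the 32 windows (31.3%), which belong to 8 genes, and in 13.6% of all 32851 windows of the table. GGAA was found in all 32 and in 96.0% of all windows. Windows of 1 gene can overlap, no test was made, and a match is not a measured binding site. The genes with a match were Cd53, F13a1, Fcgr1, Fcgr3, Itgam, Laptm5, Mrc1 and Trem2.

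Windows of 4 of these are shown to compare a resident marker, an injury-related marker, an Fc receptor and an integrin chain. They lie at chr2:14229164-14229463 on the plus strand (Mrc1), chr17:48346151-48346450 on the plus strand (Trem2), chr3:96293920-96294219 on the minus strand (Fcgr1) and chr7:128062390-128062689 on the plus strand (Itgam). Each is written 5′ to 3′ along the gene, with the letters GAGGAAG or their reverse complement in capitals.
Mrc1: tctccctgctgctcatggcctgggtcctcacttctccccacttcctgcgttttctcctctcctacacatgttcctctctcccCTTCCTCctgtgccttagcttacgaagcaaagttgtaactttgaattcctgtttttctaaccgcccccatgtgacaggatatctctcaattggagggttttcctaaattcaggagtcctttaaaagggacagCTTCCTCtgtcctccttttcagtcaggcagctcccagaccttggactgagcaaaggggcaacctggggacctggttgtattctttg
Trem2: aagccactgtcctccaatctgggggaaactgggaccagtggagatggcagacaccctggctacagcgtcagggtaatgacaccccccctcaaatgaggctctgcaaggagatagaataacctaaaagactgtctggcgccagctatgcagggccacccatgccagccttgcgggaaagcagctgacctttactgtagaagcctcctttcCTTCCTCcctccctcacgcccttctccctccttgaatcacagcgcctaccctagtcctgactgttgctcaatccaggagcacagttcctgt
Fcgr1: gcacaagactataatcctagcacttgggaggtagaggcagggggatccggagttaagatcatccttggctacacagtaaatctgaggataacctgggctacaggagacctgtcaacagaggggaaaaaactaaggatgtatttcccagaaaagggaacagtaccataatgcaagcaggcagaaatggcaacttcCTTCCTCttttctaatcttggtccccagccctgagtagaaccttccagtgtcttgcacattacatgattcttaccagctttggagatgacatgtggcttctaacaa
Itgam: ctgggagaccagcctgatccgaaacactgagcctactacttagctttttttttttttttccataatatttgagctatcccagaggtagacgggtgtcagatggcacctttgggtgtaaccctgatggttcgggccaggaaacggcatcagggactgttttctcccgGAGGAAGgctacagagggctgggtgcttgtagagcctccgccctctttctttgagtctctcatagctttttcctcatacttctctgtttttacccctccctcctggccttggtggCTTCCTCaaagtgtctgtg
Counted from the start site, with the base before it as -1, the matches begin at -168 and -36 in Mrc1, at -41 in Trem2, at -56 in Fcgr1 and at -84 and 32 in Itgam. These genes differed widely in level, from 0.0734 TPM for Fcgr1 to 1.51 TPM for Mrc1 in wild type, and had folds of mean TPM of 4.36 (Mrc1), 3.77 (Trem2), 13.2 (Fcgr1) and 8.21 (Itgam).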

How the data were processed

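RNA of muscle was extracted with TRIzol and made into libraries with a NEBNext Ultra kit, per the labels' protocols, which give the molecule as poly(A) RNA. The submitters' processing notes list STAR 2.5.3a and kallisto 0.43.0, with GRCm38 and mm10 as builds, and give no role for any of them. The deposited values were read as TPM from the values alone, since no header or label names the unit. TPM keeps no depth, so no counting interval is given, and the number of libraries limits the precision.

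Samples were grouped by the labels, copies were counted once, and genes missing from a library were set to 0. A gene entered the test where 3 or more libraries had 1 TPM or more. The test was limma 3.58.1 (R 4.3.3) on log2(TPM + 1), using the trend of variance with level, 4 residual degrees of freedom and p-values adjusted by Benjamini-Hochberg over every tested gene. Fold changes on this scale understate changes of low genes. The test and the rescaling were tested on simulated data. Ratios were compared by exact permutation (scipy 1.17.1). Positions come from GENCODE release M21, and promoter sequences from RefSeq. A planned search of protein motifs was not run, since protein sequences were not used here. Figures were made with matplotlib 3.10.9.

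The members, lists and tests were chosen with earlier results of these data known. Members were all named, with every library given for Cd68, Csf1r, Adgre1, Mrc1, Cd163, Lyve1, Ccr2, Trem2, Gpnmb, Tyrobp, Fcer1g, Spi1, the 2 largest and 2 smallest changes and the genes not tested. Each other list gave its 2 passing genes with the smallest adjusted p, or its highest gene where none passed. The result of 1 gene of the resident-type list is not reported here. Near copies of members (Lyz1, Fcgr4, Ms4a6b) and further genes named beside these, such as Prox1, Spp1, Syk, Ly6c2, Elane, Mpo, Ly6g, Retnlg, Clec4f, Vsig4 and Kdr, were chosen after their values were seen. Alternatives were quantile normalization, rescaling by trimmed means (leaving out 30% of the ratios and 5% of the levels at each end), no trend, a scale of nuclear genes, pseudocounts of 0.1 and 5, a filter of 10 TPM or none, a replicate block, a fold minimum, other reference genes for the ratios and each library left out. Leaving out wild-type library 2 with knockout library 1, and keeping the tested genes fixed when libraries were left out, were chosen after seeing the data.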

Additional observations from a re-analysis of the deposited data

How the results depend on the processing

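Every tested myeloid gene kept its direction under each alternative in which it was tested, and the count of calls followed the number of genes that reached the filter. With the 10 TPM filter 5 of 5 were called higher. When a library was left out and the filter applied again, 19 to 32 were called, the 19 of 19 arising without any 1 knockout library, because genes under 1 TPM in wild type then no longer reach 3 libraries. With wild-type library 2 and knockout library 1 left out as a pair it was 18 of 18, and with the tested genes kept as before, 32 of 32 in each of these cases. Quantile normalization gave 28 of 30, losing Cybb and Spi1, and a minimum log2 fold change of 1 gave 25 of 32. Over all genes, 4339 were called on the deposited scale (92.6% of them higher) and 2847 after quantile normalization (48.1% higher), 3098 after trimmed-mean rescaling (48.9% higher), 3627 on the nuclear scale (78.6% higher), 1839 with the 10 TPM filter, 912 with the fold minimum, 2784 when wild-type library 2 was left out, 2648 and 2724 when knockout library 1 or 3 was, and 1886 with the pair above left out. The pseudocount set the size of the changes, with a median over the 32 of 2.25 at 0.1 TPM and 0.71 at 5 TPM. The samples share only a number: correlations across genes between same-numbered libraries were 0.028, -0.008 and 0.037, and with the replicate block 32 of 32 were called and 4373 genes in all.

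Differences of the ratios (knockout minus wild type) turned in sign with the reference gene for Mrc1, Lyve1, Ccr2 and Gpnmb, but not for Cd163 and Trem2. Over Cd68 they were -0.281 for Mrc1, -0.420 for Lyve1, -0.0958 for Ccr2 and -0.182 for Gpnmb, against 0.163, 0.208, 0.0892 and 0.651 over Csf1r. Over Tyrobp they were -0.298, -0.380, -0.109 and -0.0793 for the same genes, and with 1 TPM added to both genes the Ccr2 difference over Csf1r was -0.0677. For Cd163 the differences were -0.210 over Csf1r, -0.466 over Cd68 and -0.526 over Tyrobp. In the same order they were -0.0117, -0.0614 and -0.0645 for Trem2. With each library left out, differences over Csf1r ran from -0.0449 to 0.0324 for Trem2, from -0.0527 to 0.473 for Lyve1 and from -0.0362 to 0.229 for Ccr2. For Cd163 they stayed negative, from -0.346 to -0.0787. Apart from what each alternative's own construction shows, the cause of these changes was not tested.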

Other observations

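Some genes for growth factors that maintain myeloid cells, and for their receptors, were also called higher. Of 8 such genes besides Csf1r, 5 were tested and all 5 were called higher on the deposited scale (3 of 5 after trimmed-mean rescaling, limma). In the same fits 36.3% and 13.8% of all tested genes were called higher. Il34 and Csf2ra lost their calls after rescaling, and Csf2ra overlapped between the genotypes. Csf2rb reached the filter only through the knockout libraries. Csf1, the ligand of Csf1r, rose from 1.92 ± 0.283 to 7.02 ± 0.799 TPM (SD, n = 3 each; log2 fold change 1.46, limma adjusted p = 2.76e-05), and Csf2rb, the signalling chain shared by the receptors for GM-CSF, IL-3 and IL-5, from 0.559 ± 0.359 to 5.29 ± 1.45 TPM. Csf2 was at 0.0919 TPM in knockout library 1 and at 0 or without an entry in the other 5 libraries, and Csf3 did not exceed 0.0343 TPM in any library.

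Of 9 transcription factors of myeloid cells other than Spi1, 7 were tested, 5 were called higher and none lower (3 higher after trimmed-mean rescaling). Runx1 rose from 0.434 ± 0.0581 to 2.01 ± 0.164 TPM and Irf8, a factor of monocytes and dendritic cells, from 0.466 ± 0.0602 to 1.72 ± 0.2003 TPM. Klf4 and Nr1h3 did not pass the test.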
